A study of Mus musculus with 18 samples.

Results

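The genes described here encode 8 enzymes of serine synthesis and folate one-carbon metabolism: Phgdh, Psat1, Psph, Shmt1, Shmt2, Mthfd2, Mthfd1l and Aldh1l2. They were picked by name, by their place in the pathway, from the 56748 gene IDs of the count table, with earlier results of these data known, and all 8 were found and passed the filter on low counts. RNA was sequenced from the mouse leukemia line RN2, whose cells are labelled MLL-AF9 / NrasG12D with genotype WT, after lentiviral transduction and sorting on day 5. There were 6 groups of 3 libraries: seBE under 1 nM rapamycin or vehicle for 24 h, intact BE under 1 nM rapamycin or vehicle for 24 h, the evoA1 catalytic mutant, and Cas9 nickase (nCas9). Intact BE is a base editor that carries the deaminase evoA1 on the nickase, the catalytic mutant carries the same editor with that deaminase inactive, and seBE is a further editor construct, in a series whose title speaks of small-molecule control. Labels of the catalytic mutant and nCas9 libraries also say vehicle for 24 h, whereas the treatment protocol names drug or vehicle for intact BE and seBE alone. All groups are 1 cell line, the construct promoter and any guide are not given here, and each title gives a biological replicate number but not whether replicates were separate transductions. The p-values cover the spread among these libraries. The stated purpose was to look in gene expression for mechanisms of base editor toxicity.

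Serine is made from a glycolytic intermediate in a short chain: Phgdh oxidises it, Psat1 transfers an amino group from glutamate, and Psph removes the phosphate. Shmt1 in the cytosol and Shmt2 in mitochondria then split serine into glycine and a one-carbon unit carried on folate. In mitochondria Mthfd2 oxidises that unit, Mthfd1l releases it as formate for nucleotide synthesis in the cytosol, and Aldh1l2 can instead burn it to CO2 with gain of NADPH. In mammalian cells the transcription factor ATF4 is known to raise several of these genes when amino acids run short, and rapamycin is known as an inhibitor of the kinase complex mTORC1. Leukemia and other dividing cells are known to depend on this supply for purines and thymidylate.

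Library totals ran from 13835979 to 23284932 counts. Levels are CPM, counts scaled to a common total by TMM-adjusted library sizes, and "changed" means an adjusted p under 0.05 in edgeR's quasi-likelihood test with Benjamini-Hochberg adjustment over 14985 genes. The 9 myeloid leukemia markers, among them Hoxa9, Meis1, Kit and Mpo, summed to 1740 to 2110 CPM over all libraries, whereas lymphocyte markers reached at most 13.6 CPM, erythroid markers 1.69 CPM and fibroblast or endothelial markers 0.873 CPM. Cd3e and Hbb-bs were at 0 in all 18 libraries. Replicate 3 of the catalytic mutant stood apart in the most abundant gene, which held 0.153% of its counts against 1.25% to 3.02% in the other libraries, and replicate 2 of nCas9 lay farthest out on the second principal component, at 15.7 against -8.86 to 10 for the others. Mitochondrially encoded genes took 2.99% to 4.61% of the counts in seBE under rapamycin, 2.66% to 4.1% in seBE under vehicle, 1.99% to 2.25% in intact BE under rapamycin, 1.78% to 2.02% in intact BE under vehicle, 3.73% to 5.47% in the catalytic mutant and 4.43% to 5.54% in nCas9.

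Per kilobase of their longest annotated transcript, the 8 genes differed widely in level. Psat1 averaged 190 CPM per kilobase over the 18 libraries, Shmt2 146, Phgdh 101, Mthfd2 73.8, Shmt1 38.4, Mthfd1l 26.8 and Psph 12.1. Aldh1l2 averaged 0.187 CPM per kilobase, with 0 to 73 raw counts per library, so that its changes could be measured only coarsely. The ratio of the highest to the lowest group mean was 1.79 for Phgdh, 1.77 for Psph, 1.69 for Mthfd2, 1.62 for Shmt2, 1.42 for Psat1 and 1.33 for Mthfd1l. It was 1.12 for Shmt1, the cytosolic enzyme. In 6 of the 8 genes, Phgdh, Psat1, Psph, Shmt2, Mthfd2 and Aldh1l2, the lowest group mean was that of intact BE under rapamycin.

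**Figure D1:**
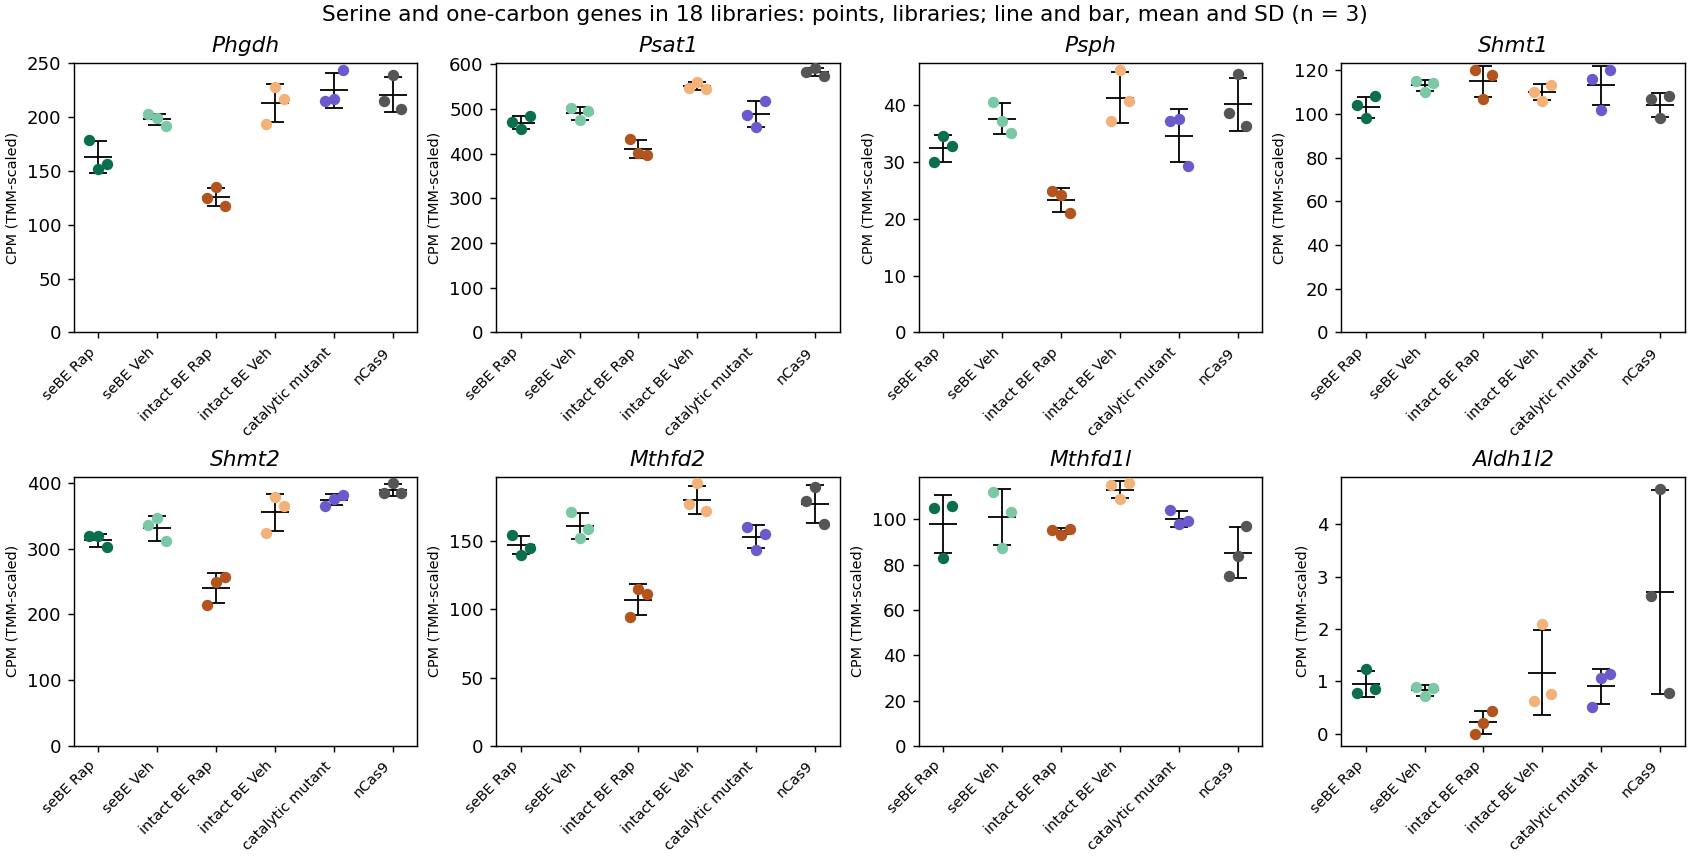
TMM-scaled CPM of the 8 genes in each of 18 libraries, 1 panel per gene, with points for libraries and a line and bar for the mean and SD of 3 libraries in each of the 6 groups. Intact BE under rapamycin lay lowest for Phgdh, Psat1, Psph, Shmt2, Mthfd2 and Aldh1l2, while Shmt1 group means stayed between 103 and 115 CPM.

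Rapamycin against vehicle in intact BE shows the drug's effect with that editor in place. The 3 serine synthesis genes and 2 of the 4 mitochondrial one-carbon genes fell, while Shmt1 did not pass the test. In all, 5 of 8 genes were lower and 0 higher, where 1.34% of all tested genes were called lower, 1.98% higher and 3.32% were called in either direction. The median log2 fold change of the 8 genes was -0.66, against 0 over all tested genes. No overlap between the 3 rapamycin and the 3 vehicle libraries was seen for 7 of the 8, against 22.3% of all genes. In bulk RNA, fewer cells expressing a gene and less RNA per cell cannot be told apart. Among the 9 myeloid markers 2 passed as higher under rapamycin in intact BE and 0 as lower, and 6 of 9 did not overlap. Of those 6, Itgam and Kit lay higher under rapamycin and the others lay lower. The lower ones were Hoxa9 (mean 266 against 299 CPM under vehicle), Hoxa10 (67.7 against 74.7), Mpo (233 against 289) and Elane (503 against 605). Itgam, an integrin of mature myeloid cells, averaged 201 ± 19.3 CPM under rapamycin and 135 ± 7.19 CPM under vehicle (log2 0.58 ± 0.0795), and the receptor Kit averaged 185 ± 8.35 CPM under rapamycin and 149 ± 5.34 CPM under vehicle (0.31 ± 0.0778). The summed markers were at 1940 to 2010 CPM under rapamycin and 2050 to 2070 CPM under vehicle, and their part in the results was not tested.

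Phgdh, which catalyses the committed step of serine synthesis, stood at 125, 135 and 118 CPM in intact BE under rapamycin, against 194, 228 and 217 CPM under vehicle. All drug libraries lay below all vehicle libraries. The log2 fold change was -0.76 ± 0.0807 (SE), a ratio of 0.591, with edgeR adjusted p = 1.29e-07, and its p-value ranked 5 among the 14985 genes tested. Psat1, the aminotransferase of the chain, had 432, 402 and 397 CPM under rapamycin, against 547, 560 and 544 CPM under vehicle. Its fall was smaller, with a log2 fold change of -0.42 ± 0.0647 and adjusted p = 5.33e-05 by edgeR. Psph, the phosphatase that ends the chain, was the least abundant of the 3 per kilobase and had 24.8, 24.1 and 21 CPM under rapamycin, against 37.1, 46.1 and 40.7 CPM under vehicle. It fell by 0.82 on the log2 scale, with an SE of 0.12 and an edgeR adjusted p of 2.56e-05. The exons of Psph overlap those of Cct6a, a chaperonin gene on the opposite strand, and the strand setting of the count is not given here. Cct6a itself was at 496 ± 18.6 CPM under rapamycin and 523 ± 24.8 CPM under vehicle (SD, n = 3 each), with a log2 fold change of -0.08 ± 0.0783. Phgdh has 21 annotated sequences of at least 90% identity elsewhere in the genome, which together averaged 9.67 counts per library.

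In mitochondria, Shmt2 and Mthfd2 fell with the serine synthesis genes. Mthfd2, the folate dehydrogenase and cyclohydrolase, stood at 94.3, 115 and 111 CPM in intact BE under rapamycin, against 177, 192 and 172 CPM under vehicle. Every drug library lay below every vehicle library, the log2 fold change was -0.75 ± 0.0811, a ratio of 0.593, and the adjusted p was 1.47e-07 by edgeR, ranked 6 among all genes. Shmt2 had 214, 250 and 257 CPM under rapamycin, against 323, 378 and 365 CPM under vehicle (log2 -0.57 ± 0.0733, edgeR adjusted p = 4.2e-06). Mthfd1l, which releases formate, had 95.3, 93.1 and 95.9 CPM under rapamycin, against 115, 109 and 116 CPM under vehicle. Its groups did not overlap either, yet its log2 fold change of -0.26 ± 0.0939 did not pass, with edgeR adjusted p = 0.143. Aldh1l2 had 0, 4 and 9 raw counts under rapamycin, against 11, 31 and 14 under vehicle (log2 -2.4 ± 0.799, adjusted p = 0.0976), and overlaps D10Wsu102e, a far more abundant gene on the opposite strand that was higher under rapamycin (0.33 ± 0.0859, adjusted p = 0.0217). With DESeq2 Aldh1l2 passed, at adjusted p = 0.0322, and Mthfd1l passed in a fit of the compared libraries alone, at 0.0246.

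Shmt1, the cytosolic counterpart of Shmt2, had 120, 107 and 118 CPM in intact BE under rapamycin, against 110, 106 and 113 CPM under vehicle. The libraries overlapped, and the 95% interval of the log2 fold change ran from -0.09 to 0.22, with edgeR adjusted p = 0.793. Shmt1 exons overlap those of Smcr8 on the opposite strand, which averaged 2033.5 counts per library, and the strand setting of the count is not given here. The ratio of Shmt2 to Shmt1 counts, which does not depend on library scaling, was 1.78, 2.33 and 2.17 under rapamycin, against 2.93, 3.56 and 3.22 under vehicle. Psat1 counts over Phgdh counts were higher with the drug, at 3.47, 2.98 and 3.37 under rapamycin, against 2.83, 2.45 and 2.51 under vehicle. Both ratios separated the drug libraries from the vehicle libraries without overlap. The 5 falls passed without any 1 of the 6 libraries, with the highest adjusted p at 0.00104, for Psat1.

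The same drug comparison was made in seBE, read here as an editor that a small molecule can switch. Rapamycin may there also change the state of the editor, and no nCas9 or catalytic mutant library was under rapamycin. Effects of the drug and of the editor's state thus cannot be told apart in seBE, or in its difference from intact BE. None of the 8 genes passed the edgeR test, and neither did any of the 14985 genes tested, a background of 0%. At an unadjusted p under 0.05 there were 493 genes, 3.29% of those tested, and 1 of the 8. No overlap was seen for 3 of the 8, Phgdh, Psph and Shmt1, against 8.06% of all genes, while DESeq2 called 1 gene in all and 0 of the 8. Phgdh was the 1 of the 8 under an unadjusted p of 0.05, with 179, 152 and 157 CPM in seBE under rapamycin, against 203, 199 and 192 CPM under vehicle. The drug libraries lay below the vehicle libraries here too. Its log2 fold change was -0.28 ± 0.0801, its unadjusted p of 0.00113 ranked 8 among all genes, and its adjusted p was 0.999 by edgeR.

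The other genes had intervals that included 0 in seBE. Psat1 had 471, 454 and 483 CPM under rapamycin, against 502, 474 and 496 CPM under vehicle, with a 95% interval of the log2 fold change from -0.19 to 0.07. Mthfd2 had 154, 140 and 145 CPM under rapamycin, against 171, 152 and 159 CPM under vehicle, with an interval from -0.3 to 0.03. Shmt2 had 319, 319 and 302 CPM under rapamycin, against 336, 347 and 311 CPM under vehicle, with an interval from -0.23 to 0.07. The libraries of both arms overlapped for these 3 genes. For Psph (29.9, 34.6 and 32.7 CPM under rapamycin, against 40.5, 37.2 and 35.1 CPM under vehicle) the interval ran from -0.45 to 0.03, and for Mthfd1l from -0.23 to 0.15. The seBE intervals of Psat1, Psph, Shmt2 and Mthfd2 left out the fold changes seen in intact BE, which were -0.42, -0.82, -0.57 and -0.75. So did those of Phgdh (-0.45 to -0.12, against -0.76), Mthfd1l (against -0.26), Aldh1l2 (-1.25 to 1.66, against -2.4) and Shmt1 (-0.29 to 0.02, against 0.07). The intact BE values have errors of their own, which only the interaction test below takes into account.

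**Figure D2:**
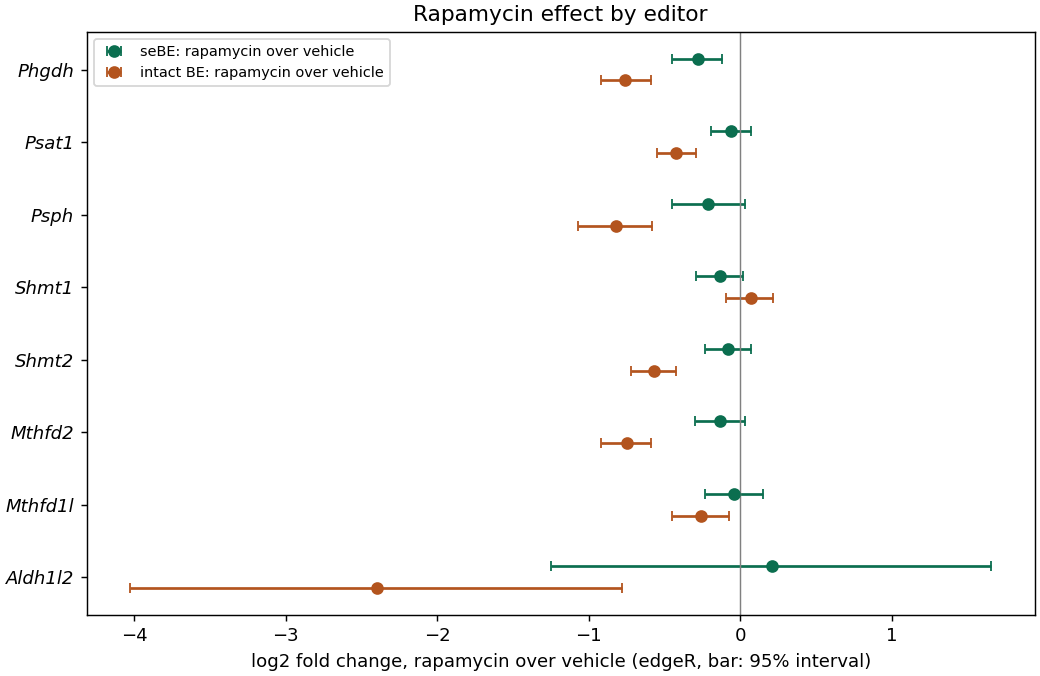
Log2 fold change of rapamycin over vehicle for each of the 8 genes (rows) in seBE and in intact BE, with 95% intervals from edgeR. In intact BE the points of Phgdh, Psat1, Psph, Shmt2 and Mthfd2 lie between -0.82 and -0.42, and in seBE those of the same genes lie between -0.28 and -0.06.

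The difference between the drug effects was tested as an interaction. It passed for Mthfd2, at 0.62 ± 0.114 on the log2 scale (edgeR adjusted p = 0.00608), and for Shmt2, at 0.48 ± 0.103 (adjusted p = 0.028). These were 2 of 8 genes, both with the smaller fall in seBE, where 0.0734% of all genes were called in that direction and 0.187% in either. The differences of Phgdh (0.47 ± 0.113, adjusted p = 0.0727), Psat1 (0.36 ± 0.0913, adjusted p = 0.116) and Psph (0.61 ± 0.168, adjusted p = 0.193) were of like size but did not pass in the main edgeR fit. With DESeq2, 4 of the 8 passed, adding Phgdh at adjusted p = 0.0211 and Psat1 at 0.00466. In edgeR, a replicate block also added Phgdh (adjusted p = 0.0236) and Psat1 (0.0409). Removal of a length and GC trend added the same genes (0.00318 and 0.0346). Psph passed only with both (0.0271). In the compared libraries alone Shmt2 did not pass, at edgeR adjusted p = 0.0698. Mthfd2 was at 0.0573 without replicate 1 of intact BE under rapamycin. Shmt2 lost its call without any 1 of 6 libraries, at adjusted p = 0.0705 to 0.184: replicate 1 of intact BE under rapamycin, replicates 2 and 3 of intact BE under vehicle, replicate 2 of seBE under rapamycin, and replicates 1 and 3 of seBE under vehicle.

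Under rapamycin, seBE and intact BE can also be set against each other directly, with the same intact BE libraries as in the drug comparison. Phgdh (log2 0.37 ± 0.0804, edgeR adjusted p = 0.00471), Psph (0.48 ± 0.119, adjusted p = 0.0151), Shmt2 (0.38 ± 0.0731, adjusted p = 0.00135) and Mthfd2 (0.46 ± 0.0808, adjusted p = 6e-04) were higher in seBE. That made 4 of 8 higher and 0 lower, against 2.04% of all genes called higher, 2.66% lower and 4.69% in either direction. The libraries did not overlap for 6 of the 8, against 19.6% of all genes. Psat1 had 471, 454 and 483 CPM in seBE, against 432, 402 and 397 CPM in intact BE, at adjusted p = 0.0777. Psph was at adjusted p = 0.0899 without replicate 2 of seBE under rapamycin and at 0.1 without replicate 3 of intact BE under rapamycin. The mitochondrially encoded share of counts was also higher in seBE than in intact BE, and its part in these differences was not tested. With mitochondrially encoded genes left out of the fit, 4 of 8 were again called. Leaving them out alters the scaling and the genes tested, and cannot show how that share relates to the 8 genes. With the length and GC trend removed, Phgdh was at 0.24 (adjusted p = 0.027) and Shmt2 at 0.27 (adjusted p = 0.00567). In the compared libraries alone Psph was at adjusted p = 0.058.

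Other genes of the pathway were read from a wider list of 42 genes for serine and glycine supply, glycine cleavage, the folate cycle, the methionine cycle and transsulfuration, of which 35 were tested. Under rapamycin in intact BE, 5 of these were lower and 1 higher, against 1.34% of all genes lower and 1.98% higher, with a median log2 fold change of -0.13. Cth, the last enzyme of transsulfuration, led them at -1.96 ± 0.247 (edgeR adjusted p = 5.23e-06). The other 4, named after their values were seen, were Fpgs, which adds glutamates to folate (-0.51), the folate carrier Slc19a1 (-0.35), Mthfd1, the cytosolic folate enzyme that takes up formate (-0.32), and Dld (-0.28), a subunit of the glycine cleavage system and of other mitochondrial dehydrogenases. Sfxn3, of the sideroflexin family of mitochondrial carriers and also named after its value was seen, was higher at 0.48. In seBE 0 of the 35 passed.

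Among 10 regulators and stress readouts, 6 fell and 1 rose under rapamycin in intact BE, against the same 1.34% and 1.98% of all genes. Asns, which makes asparagine, was at -0.95 ± 0.0892 (edgeR adjusted p = 8.36e-09), Chac1, which degrades glutathione, at -1.75 ± 0.279, and Sesn2, a stress-induced regulator of mTORC1, at -0.62 ± 0.104. Atf4 mRNA stood at 311, 348 and 328 CPM under rapamycin, against 424, 449 and 417 CPM under vehicle, without overlap (log2 -0.39 ± 0.0697, adjusted p = 0.000579). In seBE Atf4 had 415, 444 and 398 CPM under rapamycin, against 454, 453 and 428 CPM under vehicle, with a log2 fold change of -0.09 ± 0.0695 and adjusted p = 0.999. The difference of the Atf4 drug effects did not pass, at 0.3 ± 0.0983 and adjusted p = 0.342, whereas those of Asns (0.8 ± 0.125, adjusted p = 0.00176) and Cth (1.56 ± 0.337, adjusted p = 0.039) did. Directly under rapamycin, Asns was at 0.47, Sesn2 at 0.54, Atf4 at 0.35 and Cth at 1.26 in seBE over intact BE, all past the threshold.

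Promoter sequences are shown for Phgdh, Psat1 and Mthfd2, out of the 5 genes that fell together under rapamycin in intact BE. The windows shown hold CCAAT matches, whereas the window of Shmt2, which fell with them, holds none. RefSeq's GRCm38.p6 table held windows of 250 bases before to 50 after the start for 7 of the 8 genes, 8 windows in all because Psat1 has 2 starts. Each line reads in the direction of transcription, here along the minus strand, with CCAAT or its reverse complement ATTGG in capitals.
Phgdh, chr3:98339920-98340219: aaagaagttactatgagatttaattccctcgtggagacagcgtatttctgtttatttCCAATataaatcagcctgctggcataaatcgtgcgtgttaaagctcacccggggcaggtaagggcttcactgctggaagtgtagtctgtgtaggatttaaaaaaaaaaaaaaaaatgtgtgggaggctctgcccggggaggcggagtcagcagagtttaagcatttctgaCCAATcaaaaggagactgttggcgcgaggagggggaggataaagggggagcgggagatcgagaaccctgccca
Psat1, chr19:15925010-15925309: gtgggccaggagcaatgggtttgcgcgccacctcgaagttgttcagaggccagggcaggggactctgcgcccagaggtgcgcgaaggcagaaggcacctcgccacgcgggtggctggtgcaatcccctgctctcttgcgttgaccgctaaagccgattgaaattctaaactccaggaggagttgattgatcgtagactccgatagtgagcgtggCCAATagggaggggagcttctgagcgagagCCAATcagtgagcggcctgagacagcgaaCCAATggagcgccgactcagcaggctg
Mthfd2, chr6:83317555-83317854: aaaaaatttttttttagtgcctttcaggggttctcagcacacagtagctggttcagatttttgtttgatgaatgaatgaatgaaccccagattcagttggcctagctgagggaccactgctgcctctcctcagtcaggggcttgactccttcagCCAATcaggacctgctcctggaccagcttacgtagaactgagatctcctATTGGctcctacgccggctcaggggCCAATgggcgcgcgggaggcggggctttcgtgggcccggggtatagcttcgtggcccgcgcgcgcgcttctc
CCAAT, a common promoter element and a motif chosen after the sequences were seen, was found on either strand 2 times in the Phgdh window, 3 times in this Psat1 window and 3 times in the Mthfd2 window. Psph had 2 matches and Shmt1 had 1. Shmt2, Mthfd1l and the other Psat1 window had none. Of the 5 genes that fell, 4 thus had a match in at least 1 window and Shmt2 had none, while Shmt1, which did not pass, had 1. Of all 32851 windows in the table, 37.4% held at least 1 match, a share per window that is not matched to a count per gene. TGATGNAA, the C/EBP-ATF response element to which ATF4 binds, was in none of the 8 windows on either strand, against 3.97% of all windows, and the E-box CACGTG was in none, against 7.15%. No match says only that these letters are not in these windows.

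Without rapamycin, at most 1 of the 8 genes passed in each comparison of constructs. In intact BE under vehicle, set against the nickase without a deaminase, 1 of 8 genes was higher and 0 lower, with 13.1% of all genes called higher, 9.83% lower and 23% in either direction. The libraries did not overlap for 3 of the 8, against 38% of all genes. That gene was Mthfd1l, at 115, 109 and 116 CPM in intact BE, against 74.9, 83.9 and 97.1 CPM in nCas9. The groups did not overlap, and the log2 fold change was 0.41 ± 0.0945 (edgeR adjusted p = 0.00161), or 0.4 at adjusted p = 0.00916 without replicate 2 of nCas9. Mthfd1l also lay above nCas9, without passing, in the catalytic mutant (0.23 ± 0.0948, adjusted p = 0.156) and in seBE under vehicle (0.24 ± 0.0946, adjusted p = 0.148). Without nCas9 replicate 3 both passed, at edgeR adjusted p = 0.039 and 0.0339. Between intact BE under vehicle and the catalytic mutant Mthfd1l did not pass (0.17 ± 0.0944, adjusted p = 0.211). For Phgdh, Psat1, Psph, Shmt1, Shmt2 and Mthfd2 the log2 fold changes of intact BE over nCas9 lay between -0.13 and 0.07. Aldh1l2 had 11, 31 and 14 counts in intact BE, against 49, 73 and 16 in nCas9, at -1.23 ± 0.699 and adjusted p = 0.222. In the catalytic mutant it had 7, 20 and 17 counts, at -1.56 ± 0.71 against nCas9 (adjusted p = 0.216), and in seBE under vehicle 13, 12 and 18 counts, at -1.7 ± 0.713 (adjusted p = 0.179). Its nCas9 libraries differed widely among themselves, and each of these groups overlapped with them.

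Psat1 was the 1 gene of the 8 to pass in the catalytic mutant and in seBE under vehicle, each set against the same nCas9 libraries. It had 487, 459 and 518 CPM in the catalytic mutant, against 582, 592 and 573 CPM in nCas9, a log2 fold change of -0.25 ± 0.0646 with edgeR adjusted p = 0.0179. In seBE under vehicle it had 502, 474 and 496 CPM, at -0.25 ± 0.0646 against nCas9 and adjusted p = 0.0223. All libraries of both groups lay below all nCas9 libraries. For the catalytic mutant 2.06% of all genes were called lower, 2.24% higher and 4.3% in either direction, and 4 of the 8 genes did not overlap, against 21.3% of all genes. For seBE 1.93% of all genes were called lower, 2.64% higher and 4.56% in either direction, and 4 of the 8 did not overlap, against 22.5% of all genes. Neither call held without each library in turn, although the log2 fold change stayed between -0.3 and -0.2 for the catalytic mutant and between -0.26 and -0.22 for seBE. For the catalytic mutant the adjusted p was 0.0648 and 0.107 without nCas9 replicates 1 and 2, 0.0592 and 0.118 without mutant replicates 1 and 2, 0.0161 without mutant replicate 3, which stood apart, and 0.0281 without nCas9 replicate 3. For seBE it was 0.0776 and 0.114 without nCas9 replicates 1 and 2, 0.0276 without nCas9 replicate 3, and 0.0958, 0.0638 and 0.0752 without seBE replicates 1, 2 and 3. Shmt2 was just short of the threshold in seBE, at -0.23 ± 0.073 and adjusted p = 0.0576, and DESeq2 called it at 0.0299.

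**Figure D3:**
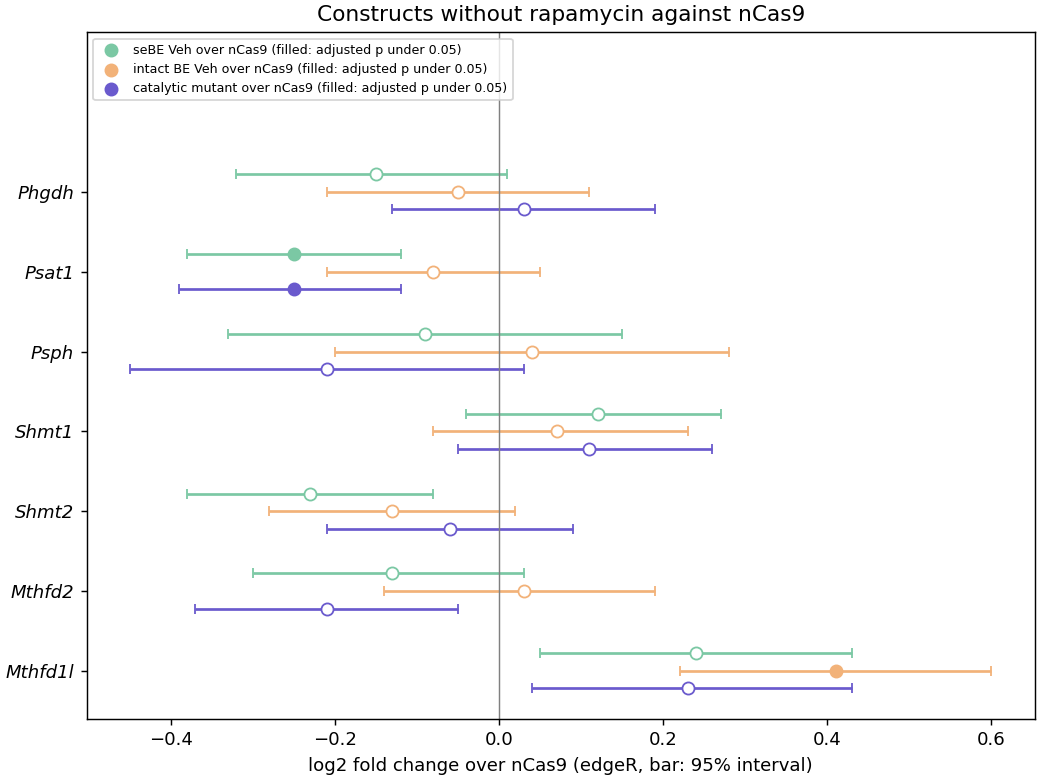
Log2 fold change over nCas9 for 7 of the genes (rows, Aldh1l2 left out because of its low counts) in seBE under vehicle, intact BE under vehicle and the catalytic mutant, with 95% intervals from edgeR and filled points where the adjusted p is under 0.05. Filled points are Psat1 at -0.25 in seBE and in the catalytic mutant, and Mthfd1l at 0.41 in intact BE.

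Intact BE under vehicle was also set against the catalytic mutant. Mthfd2 was the 1 of 8 genes to pass, as higher, where 11.6% of all genes were called higher, 9.33% lower and 21% in either direction. A count of 1 in 8 is near the share of all genes called higher. No overlap was seen for 3 of the 8, against 37.8% of all genes. Mthfd2 had 177, 192 and 172 CPM in intact BE, against 160, 143 and 155 CPM in the catalytic mutant (log2 0.24 ± 0.0807, edgeR adjusted p = 0.0325). Its adjusted p was 0.071 and 0.181 without intact BE replicates 1 and 2, and 0.172 without mutant replicate 2. Psat1 was close, at 0.17 ± 0.0646 and adjusted p = 0.0521. Over nCas9, Mthfd2 was at 0.03 ± 0.0803 in intact BE under vehicle (edgeR adjusted p = 0.854). In the catalytic mutant it was at -0.21 ± 0.0806 over nCas9, without overlap (adjusted p = 0.132). Levels relative to the mean of all libraries also followed transcript length, with log2 slopes per doubling of length of 0.044 to 0.0906 over the intact BE libraries under vehicle, -0.0749 to -0.0283 over the mutant libraries and -0.0949 to -0.0484 over the nCas9 libraries. Shmt2, which was at -0.07 against the mutant, was at 0.2 with adjusted p = 0.0301 once a trend on length and GC content was removed.

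Between seBE under vehicle and the catalytic mutant 0 of 8 genes passed in edgeR or in DESeq2, and 0.0267% of all genes did in edgeR; 2 of the 8 were under an unadjusted p of 0.05, and 2 did not overlap, against 15.2% of all genes. Between seBE under vehicle and intact BE under vehicle 0 of 8 passed in either tool, 1 was under an unadjusted p of 0.05, and edgeR called 1.68% of all genes higher, 2.32% lower and 3.99% in either direction. The libraries did not overlap for 2 of the 8, Psat1 and Mthfd2, against 29.4% of all genes. Psat1 had 502, 474 and 496 CPM in seBE, against 547, 560 and 544 CPM in intact BE, without overlap, at -0.17 ± 0.0646 and adjusted p = 0.137. With the length and GC trend removed, Phgdh and Shmt2 were called lower in seBE, at adjusted p = 0.0258 and 0.0161. The wider list had 1 gene higher and 0 lower of 35 in seBE over intact BE, the amino acid carrier Slc1a5 at 0.36, and Asns was lower at -0.33.

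The wider list was read in the same way without rapamycin. In intact BE under vehicle against nCas9, 9 of 35 were higher and 4 lower, where 13.1% of all genes were higher and 9.83% lower, led by Mthfd1 at 0.69 ± 0.0841 (edgeR adjusted p = 1.06e-06), by Slc1a5 at -0.76 ± 0.0948, and by Mtr, the folate-dependent methionine synthase, at 0.49 ± 0.0815. The stress factor Ddit3 was at -1.32 and Atf4 at -0.4. In intact BE against the catalytic mutant, 8 of 35 were higher and 1 lower, where 11.6% of all genes were higher and 9.33% lower, with Slc1a5 at -0.66, Dld at 0.37 and Mat2a, which makes S-adenosylmethionine, at 0.33, and among the regulators Ddit3 was at -0.96. In the catalytic mutant against nCas9, 1 of 35 was higher and 2 lower, where 2.24% of all genes were higher and 2.06% lower, with Cth at -1.15, and among the regulators Asns was at -0.68, Atf4 at -0.34 and Myc at 0.32. In seBE under vehicle against nCas9, 4 of 35 were higher and 4 lower, where 2.64% of all genes were higher and 1.93% lower, with Mthfd1 at 0.52, and among the regulators Asns was at -0.64, Nupr1 at -1.94 and Atf4 at -0.35. Mthfd1 thus passed upward in each of these 3 constructs over the shared nCas9 libraries, and Atf4 mRNA passed downward in each.

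The order of the groups differed from gene to gene. For Phgdh the catalytic mutant came first at 225 ± 16.2 CPM, then nCas9 at 221 ± 16.1, intact BE under vehicle at 213 ± 17.7, seBE under vehicle at 198 ± 5.44, seBE under rapamycin at 163 ± 14.7 and intact BE under rapamycin at 126 ± 8.72 (SD, n = 3 each). Among the first 4, each differed from the next by less than the larger SD of the pair. For Psat1 the order was nCas9 at 582 ± 9.43 CPM, intact BE under vehicle at 550 ± 8.77, seBE under vehicle at 490 ± 14.9, the catalytic mutant at 488 ± 29.7, seBE under rapamycin at 469 ± 14.5 and intact BE under rapamycin at 410 ± 19.3. For Mthfd2 intact BE under vehicle, at 180 ± 10.3 CPM, and nCas9, at 177 ± 13.9, came ahead of seBE under vehicle at 161 ± 9.68, the catalytic mutant at 153 ± 8.49, seBE under rapamycin at 147 ± 6.79 and intact BE under rapamycin at 107 ± 11.1. Mthfd1l ran from 113 ± 3.63 CPM in intact BE under vehicle to 85.3 ± 11.1 in nCas9.

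Over the 18 libraries Phgdh, Psat1, Psph, Shmt2 and Mthfd2 varied together, with Pearson r of 0.788 (Psat1 and Shmt2) to 0.933 (Phgdh and Shmt2). Shmt1 had r of -0.414 to -0.178 with these 5 genes, and Mthfd1l -0.0377 to 0.15. These points share their group and library, and in deviations from the group means the r of the same 5 genes ran from -0.369 (Psat1 and Shmt2) to 0.519 (Phgdh and Mthfd2). Among 9084 genes with a mean log2 CPM of at least 3, the nearest to Psat1 was Asns (r = 0.973), to Phgdh Yars (0.946), to Shmt2 Yars as well (0.948), to Psph Gpt2 (0.862), to Mthfd2 Ufsp2 (0.924), to Mthfd1l Wbp11 (0.926) and to Shmt1 Ndel1 (0.76). The 5 genes nearest to the mean profile of the 7 abundant members were Aldh18a1 (r = 0.921), Ldha (0.9), Qdpr (0.899), Atp5b (0.894) and Tars (0.872). Yars and Tars charge tRNA with tyrosine and threonine, Gpt2 is a mitochondrial aminotransferase and Aldh18a1 starts proline synthesis. Asns stood at 65.4 ± 6.09 CPM in intact BE under rapamycin and 127 ± 13.4 CPM under vehicle, and at 157 ± 15.8 CPM in nCas9.

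**Figure D4:**
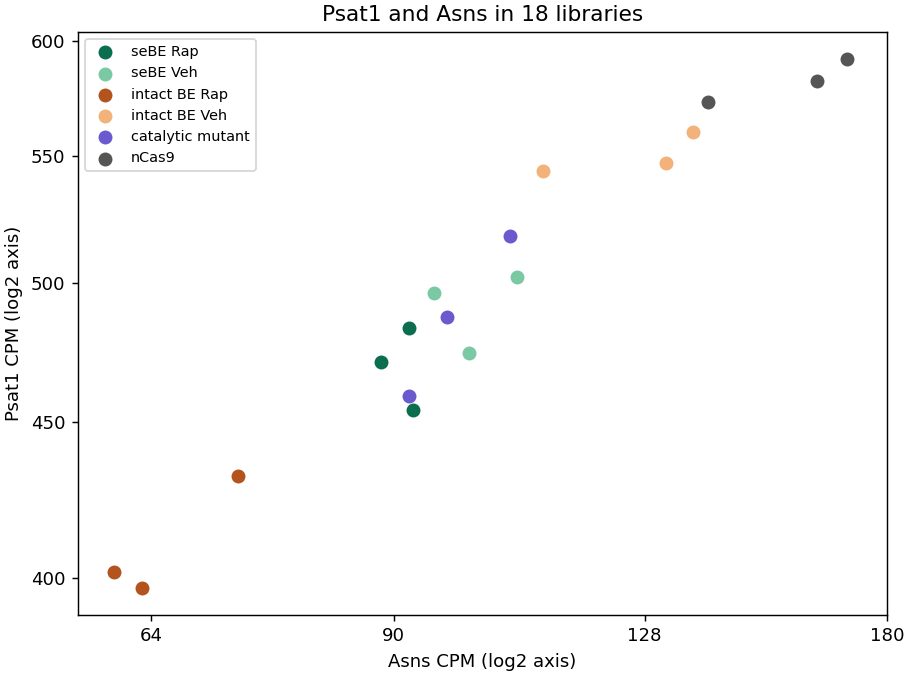
Psat1 against Asns in 18 libraries, both as TMM-scaled CPM on log2 axes, 1 point per library coloured by group. The 3 libraries of intact BE under rapamycin lie lowest on both axes, at 397 to 432 CPM for Psat1, and those of nCas9 highest, at 573 to 592 CPM.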

How the data were processed

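PolyA-selected, directional libraries from 18 samples were analysed from the authors' deposited table of raw read counts per Ensembl gene ID. Per the submitters' processing notes the authors used fastp 1.0.1, STAR 2.7.1a, SAMtools 1.9 and featureCounts of Subread 2.0.3 on GRCm39, and DESeq2. The sources used here do not give the annotation release, strand setting or multi-mapping rule. A table of Ensembl IDs and symbols matched 52073 of 56748 IDs. Genes passing edgeR's filterByExpr (14985, with 99.93% of counts) entered 1 fit of 6 group means scaled by TMM and tested by robust quasi-likelihood F in R 4.3.3 with edgeR 4.0.16, on a common dispersion of 0.0176. The SE is the log2 fold change divided by the square root of F. The procedure was tested on simulated counts. The alternatives were DESeq2 1.42.0, 2 other filters, the compared libraries alone, a replicate block, no mitochondrially encoded genes, removal of a length and GC trend (a spline with 4 degrees of freedom per library, from GENCODE M21 transcripts on the older GRCm38, found for 97.4% of tested genes) and leaving out each library. Same-numbered libraries deviated together for rapamycin against vehicle in seBE (r of 0.116 to 0.408 over genes). The number was read as pairing them there, although the labels do not state a pairing, and the block changed no call in that comparison. In no other comparison were all 3 correlations over 0.1. Copies and overlapping genes came from GENCODE M21 too.

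The members and lists were chosen with earlier results of these data known. Named were all 8 members, up to 4 called genes of the wider lists per comparison by adjusted p, Atf4 always, and the genes nearest by Pearson r.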

Additional observations from a re-analysis of the deposited data

Results flagged for a closer look

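The drug effect differed between editors by the interaction test for 2 genes. The difference of Mthfd2 was 0.62 on the log2 scale (seBE minus intact BE), from drug effects of -0.13 in seBE and -0.75 in intact BE. That of Shmt2 was 0.48, from drug effects of -0.08 in seBE and -0.57 in intact BE. In the 12 fits that each left out 1 library, Mthfd2 kept its call in 11 and Shmt2 in 6.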

How the results depend on the processing

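The replicate block changed no call for rapamycin in intact BE or in seBE (5 and 0 genes). The 5 falls under rapamycin in intact BE passed under all 8 other settings and without any 1 library, with 5 to 6 genes called. For the difference between drug effects 2 genes were called, against 4 with the replicate block, 4 with the length and GC trend removed, 5 with both, 4 by DESeq2, 1 in the compared libraries alone, and 0 to 3 without single libraries. For intact BE against the catalytic mutant 1 was called, against 2 with the block, 2 with the trend removed, 4 with both, 2 by DESeq2 and 0 to 2 without single libraries. Shmt2 there turned to 0.2 with the trend removed and to 0.2 with the block too, where Phgdh turned to 0.19. For seBE against nCas9 1 was called, against 2 with the block, the trend removed, both, DESeq2 or the compared libraries alone, and 0 to 2 without single libraries. For the catalytic mutant against nCas9 1 was called, against 2 with block and trend removal, 0 in the compared libraries alone and 0 to 2 without single libraries. For seBE against intact BE under vehicle 0 became 2 with the trend removed, with or without the block. For seBE against intact BE under rapamycin 4 were called, against 5 with the block, the trend removed, both or DESeq2, 3 in the compared libraries alone and 3 to 4 without single libraries. For intact BE against nCas9 1 was called without any 1 library. The causes were not tested. By the labels, the libraries of a replicate block share only a number. Calls over all genes, with their range over all settings, numbered 28 (11 to 176) for the difference, 497 (214 to 1033) for rapamycin in intact BE, 703 (256 to 1237) for seBE against intact BE under rapamycin and 598 (52 to 1837) under vehicle, 644 (122 to 985) for the catalytic mutant, 684 (122 to 1278) for seBE and 3442 (2331 to 3728) for intact BE against nCas9, and 3141 (1560 to 3559) for intact BE and 4 (2 to 45) for seBE against the catalytic mutant. At 0 to 73 counts per library, changes of Aldh1l2 could be measured only coarsely.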
